A study of Mus musculus with 11 samples.

Results

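Laminin chains and integrin subunits were followed across 3 regions of the mouse testis. The set was chosen by gene symbol and holds 34 genes of the 18194 that have at least 1 array probe set of their own. It is made of 10 laminin chains, 16 integrin alpha subunits and 8 integrin beta subunits. Each gene was read from 1 probe set, the one with the highest mean log2 signal among the 73 that the 34 genes share. Itga11 and Itgad were not analysed here.

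The study set out to learn what is particular to the Sertoli valve (SV), the short end piece of each seminiferous tubule, by comparing it with the rete testis (RT), the duct network into which the tubules empty, and with the convoluted seminiferous tubules (ST), which served as the control. All 11 arrays, 3 of RT and 4 each of SV and ST, came from W/Wv mice aged 7 weeks, so the control shares this genotype. W/Wv mice carry mutations of both copies of the Kit gene and have few germ cells, so the tubules hold mainly Sertoli cells within a wall of peritubular myoid cells. Each array was made from a pool of 20 testes that were filled with 0.4% trypan blue through the efferent ducts, fixed in RNAlater and cut by hand, and a value for a single animal does not exist. RNA came from whole pieces, so fewer cells of a type and less RNA per cell cannot be told apart.

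Laminins are cross-shaped proteins of basement membranes, each built from an alpha, a beta and a gamma chain. Integrins are receptors in the cell membrane, each a pair of an alpha and a beta subunit, which hold cells to the matrix or to other cells. Itga3, Itga6 and Itga7 are the classical laminin-binding alpha subunits, which pair with Itgb1 and, for Itga6, also with Itgb4. In the testis, Sertoli cells and peritubular myoid cells together lay down the basement membrane of the tubule. The rete testis is lined by a simple epithelium with a basement membrane of its own.

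RT differed from ST in a mixed way, with Lama5, Itga3, Itgb4 and Itgb8 among the higher genes and Lama1, Lama3, Itga6 and Itga8 among the lower ones. A gene was called higher or lower where the limma fit over all 45101 probe sets gave a Benjamini-Hochberg adjusted p under 0.05 and the change was over 2-fold. In RT against ST, 6 of the 34 genes were higher (Lama5, Itga2b, Itga3, Itgal, Itgb4 and Itgb8) and 5 were lower (Lama1, Lama3, Itga6, Itga8 and Itgax). Over all 18194 genes, 12.5% were higher and 7.34% lower by the same call. In SV against ST, 1 gene, Itgal, was higher and none lower, beside 2.39% and 0.0769% of all genes. At an unadjusted p under 0.05 with no fold threshold, limma gave 8 higher and 1 lower in that comparison, beside 12% and 6.41% of all genes. In SV against RT, 5 were higher (Lama1, Lama3, Itga6, Itga8 and Itgb3) and 2 lower (Lama5 and Itgb4), beside 4.39% and 6.41% of all genes. Over the 34 genes the median log2 difference was 0.17 for RT minus ST and 0.01 for SV minus ST, where that of all genes was 0.08 and 0.02. These 3 comparisons share their arrays and are not independent of each other.

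Upstream sequences are shown for the genes called in RT against ST that have an entry in the RefSeq promoter table and are not dim on the array, so that the letters stand beside genes that were higher (Lama5, Itga2b, Itga3, Itgb8) and a gene that was lower (Itga8) in RT. Of the 34 genes, 22 have an entry, and of the 11 called in RT against ST, 6 have one. The build is GRCm38.p6. Each run is written 5′ to 3′ on the strand of the gene, the minus strand for all 5, and ends at the last base before the annotated gene. The runs lie at chr2:180225905-180226109 (Lama5), chr11:102469884-102470133 (Itga2b), chr11:95076845-95076964 (Itga3), chr12:119238277-119238526 (Itgb8) and chr2:12301986-12302194 (Itga8). Capitals mark GC boxes (GGGCGG on either strand).
Lama5: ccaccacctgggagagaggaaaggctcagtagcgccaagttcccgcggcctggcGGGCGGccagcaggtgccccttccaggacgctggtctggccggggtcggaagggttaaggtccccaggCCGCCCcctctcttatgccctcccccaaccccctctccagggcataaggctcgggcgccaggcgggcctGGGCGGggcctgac
Itga2b: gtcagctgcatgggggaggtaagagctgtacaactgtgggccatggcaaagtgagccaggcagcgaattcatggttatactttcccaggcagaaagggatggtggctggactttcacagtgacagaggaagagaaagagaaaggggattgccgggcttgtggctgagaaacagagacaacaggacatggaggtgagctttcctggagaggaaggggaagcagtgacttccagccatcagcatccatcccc
Itga3: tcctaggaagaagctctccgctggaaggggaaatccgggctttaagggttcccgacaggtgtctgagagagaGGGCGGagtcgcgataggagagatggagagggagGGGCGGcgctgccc
Itgb8: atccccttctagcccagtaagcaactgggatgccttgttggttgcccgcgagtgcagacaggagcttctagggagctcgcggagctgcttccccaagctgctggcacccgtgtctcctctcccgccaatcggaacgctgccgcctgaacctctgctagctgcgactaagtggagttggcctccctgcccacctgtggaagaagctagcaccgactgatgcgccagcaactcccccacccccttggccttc
Itga8: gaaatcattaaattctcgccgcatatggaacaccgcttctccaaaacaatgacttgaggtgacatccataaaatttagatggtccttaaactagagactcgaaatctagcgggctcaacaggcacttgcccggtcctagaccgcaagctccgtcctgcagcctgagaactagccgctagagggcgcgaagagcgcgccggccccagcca

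The Lama5 run of 205 bases holds 3 GC boxes, and 25.6% of the 32851 promoter windows in the table hold at least 1 in a stretch of that length. The Itga3 run of 120 bases holds 2, where 12.8% of windows hold 1 or more in their first 120 bases. Itga3 has 2 starts in the table, and the outermost was used. The runs of Itga2b, Itgb8 and Itga8 hold no GC box in these letters. GC content was 71.7% for Lama5, 62.5% for Itga3 and 62.4% for Itgb8, against 54.0% for Itga2b and 53.1% for Itga8, and the median over all windows was 50.8% to 52.4% depending on the length. A CCAAT box (CCAAT on either strand) was found once in the Itgb8 run, and 33.8% of windows hold it in their first 250 bases. No run of these 5 holds a TATA box (TATAAA) or an AP-1 site (TGANTCA) on either strand. A matching run of letters is a description of the sequence, not a binding site.

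Among laminin alpha chains, RT arrays were high in Lama5 and low in Lama1 and Lama3. Lama5 encodes the alpha chain found in the basement membranes of many adult epithelia and vessels. The Lama5 signal was 795, 775 and 718 in RT, 288, 158, 164 and 279 in SV, and 149, 152, 85.0 and 124 in ST. No RT array came near the others, and every SV array lay above every ST array, SV replicate 2 by a small margin. RT exceeded ST by a log2 fold change of 2.61 ± 0.27 (limma SE, 6.12-fold, adjusted p = 1.43e-05), and the difference was −1.83 ± 0.27 in SV against RT (adjusted p = 0.000735). In SV against ST it was 0.78 ± 0.25 with an adjusted p of 0.148, so Lama5 was not called there. A further Lama5 probe set gave 2.61 in RT against ST and 0.24 in SV against ST on the log2 scale.

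Lama1 encodes the alpha chain of the laminin of early embryos and of a few adult basement membranes, that of the seminiferous tubule among them. Its signal was 367, 427 and 725 in RT, 1005, 1146, 2057 and 1421 in SV, and 1752, 1365, 1965 and 1813 in ST. All RT arrays lay below all other arrays, while SV and ST overlapped. RT was lower than ST by a log2 fold change of −1.82 ± 0.26 (3.53-fold, adjusted p = 0.000185), and SV was higher than RT by 1.48 ± 0.26 (adjusted p = 0.00217). The SV minus ST difference was −0.33, with a 95% interval from −0.86 to 0.19 on the log2 scale, which does not hold a 2-fold change.

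Lama3 encodes an alpha chain known from epithelia, where it helps to anchor hemidesmosomes in skin. Its signal was 165, 143 and 192 in RT, 314, 363, 503 and 479 in SV, and 613, 570, 553 and 574 in ST. The 3 regions did not overlap, with RT lowest and ST highest. Relative to ST, RT was lower by a log2 fold change of −1.80 ± 0.19 (adjusted p = 1.56e-05), and relative to RT, SV was higher by 1.30 ± 0.19 (adjusted p = 0.000671). In SV against ST it was −0.50 ± 0.17, which missed the call (adjusted p = 0.19). Lama3 was the only one of the 34 genes with every SV array below every ST array.

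Lama2 and Lama4, chains of muscle and of vessel walls, were not called in any comparison. Lama2 read 2624 to 3366 in RT, 1971 to 2570 in SV and 1973 to 2936 in ST. The Lama4 mean signal was 319 ± 85.9 (SD, n = 3) in RT, 337 ± 95.6 (n = 4) in SV and 196 ± 28.3 (n = 4) in ST. On the log2 scale, RT minus ST was 0.68 (adjusted p = 0.0659) and SV minus ST 0.75 (adjusted p = 0.137). Endothelial markers had summed signals of 4528 to 5943 in RT, 1593 to 3781 in SV and 915 to 1464 in ST. Of the 8, 4 were called higher in RT against ST and 1, Kdr, in SV against ST, with 2 of the 8 dim. Kdr had means of 2915 (RT), 880 (SV) and 206 (ST) and so weighs heavily in these sums. Among markers not called, RT minus ST was −0.33 for Pecam1 and −0.24 for Tek, but 0.74 for Cdh5 and 1.83 for Tie1 (log2). The part of endothelial markers in the Lama4 values was not tested.

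The beta and gamma chains that were bright enough to read, all but Lamb3, differed between RT and ST by less than 2-fold. Lamb1 and Lamc1 are the beta and gamma chains shared by most laminins. The Lamb1 signal was 5828, 5893 and 5867 in RT, 3828, 3125, 3784 and 3675 in SV, and 3383, 3149, 4055 and 4049 in ST. RT stood above both other regions, and SV and ST overlapped almost fully. The RT minus ST difference was 0.69 ± 0.13 (log2, 1.61-fold, adjusted p = 0.00124), which is past the p threshold and under 2-fold. Lamc1 had means of 1013 ± 77.3 (n = 3) in RT, 735 ± 104 (n = 4) in SV and 562 ± 67.7 (n = 4) in ST, and an RT minus ST difference of 0.86 ± 0.15 (adjusted p = 0.000903).

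Lamb2, the alternative beta chain known from the synapse and the kidney filter, had the opposite sign, with RT below ST by −0.75 ± 0.19 on the log2 scale (1.68-fold, adjusted p = 0.00972). Its RT arrays, at 1082, 1153 and 1838, lay below the 4 ST arrays at 2065 to 2466, and its SV arrays spanned 1512 to 2285. Lamc3 had means of 583, 566 and 550 in RT, SV and ST and RT minus ST was 0.04 on the log2 scale (95% interval −0.42 to 0.50). Lamb3, the beta partner of Lama3, was dim: dim means that the highest of its 3 region means lay under the median of that measure over all probe sets, a signal of 119. It read 63.4, 64.6 and 8.91 in RT and 2.43 to 33.0 in the other arrays, and was not called.

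**Figure D1:**
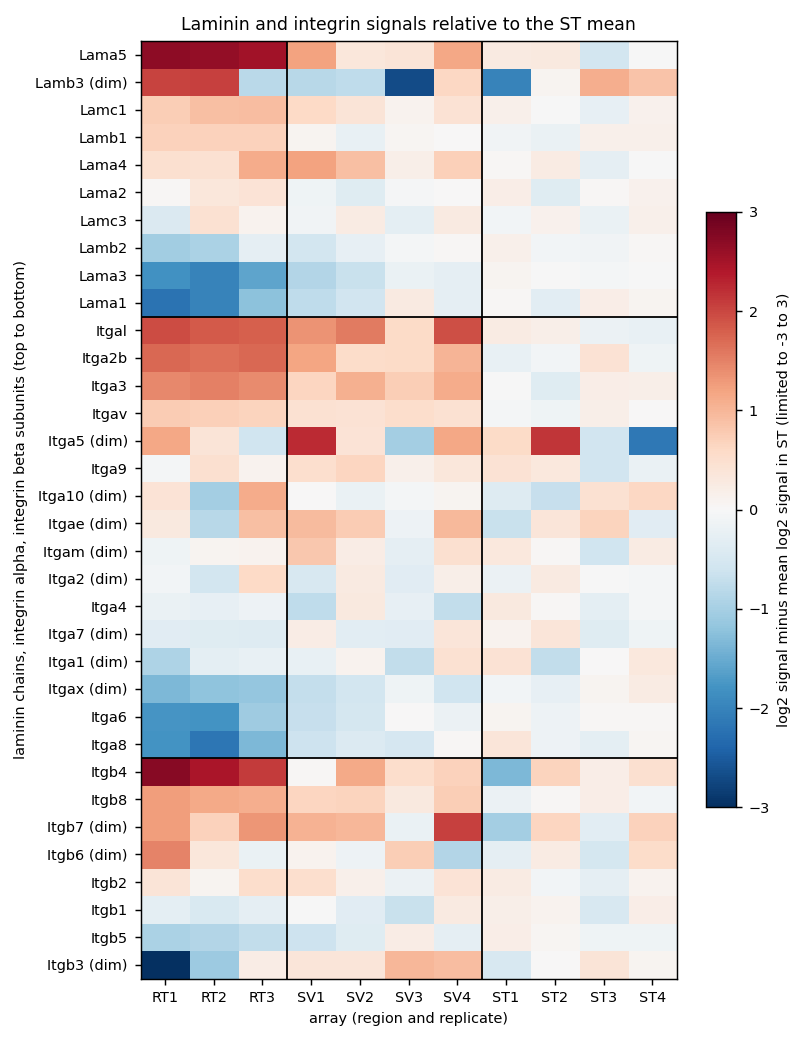
Heat map of the 34 genes (rows, in 3 blocks of laminin chains, integrin alpha and integrin beta subunits, sorted by RT against ST) in the 11 arrays (columns). Colour is the log2 signal minus the mean log2 signal of the 4 ST arrays, limited to −3 to 3. Red rows at the top of each block, such as Lama5, Itgal and Itgb4, are high in all 3 RT arrays, blue rows such as Lama1, Itga6 and Itga8 are low in all 3, and the SV arrays are paler.

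Of the laminin-binding alpha subunits, Itga3 was higher and Itga6 lower in RT than in ST. Itga3 encodes the receptor subunit that pairs with Itgb1 and binds laminins with the Lama3 or Lama5 chain. Its signal was 583, 613 and 576 in RT, 334, 453, 360 and 462 in SV, and 213, 167, 248 and 241 in ST. The 3 regions did not overlap, with SV in the middle. RT was above ST by a log2 fold change of 1.46 ± 0.18 (2.75-fold, adjusted p = 6.38e-05). In SV against ST it was 0.89 ± 0.17 (adjusted p = 0.0142), 1.85-fold and so under the fold threshold.

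Itga6 encodes the laminin receptor subunit that is used to enrich spermatogonial stem cells and that many epithelia carry. Its signal was 1580, 1547 and 2564 in RT, 3306, 3737, 5361 and 4754 in SV, and 5619, 4836, 5455 and 5513 in ST. Every RT array lay below every SV and ST array, and SV overlapped ST. RT was lower than ST by −1.54 ± 0.20 on the log2 scale (2.90-fold, adjusted p = 7.99e-05), and SV was higher than RT by 1.19 ± 0.20 (adjusted p = 0.00154). A further probe set gave −1.28 in RT against ST (adjusted p = 0.0011). Itga7, the laminin receptor subunit of muscle, was dim and not called, its means being 75.8 (RT), 99.2 (SV) and 99.5 (ST).

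Itga8 encodes the receptor for nephronectin, and mesenchymal and smooth muscle cells are known to carry it. Its signal was 127, 98.5 and 172 in RT, 285, 333, 310 and 452 in SV, and 568, 399, 360 and 459 in ST. RT lay below all other arrays, and SV and ST overlapped. On the log2 scale, RT minus ST was −1.77 ± 0.24 (3.41-fold, adjusted p = 0.000106) and SV minus RT 1.40 ± 0.24 (adjusted p = 0.00172). Of 8 peritubular myoid and smooth muscle markers, none of them dim, 3 (Acta2, Cnn1 and Actg2) were lower in RT than in ST and 5 were not called, Des and Synm among them at 0.37 and 0.54 on the log2 scale. Their summed signals were 5513 to 8025 in RT, 10086 to 12188 in SV and 10147 to 16793 in ST. Their part in the Itga8 values was not tested. Nephronectin itself (Npnt) was higher in RT than in ST, by 1.24 ± 0.32 (adjusted p = 0.0106).

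Itgav encodes the subunit that recognises the RGD motif of fibronectin, vitronectin and latent TGF-beta. Its signal was 7386, 7160 and 6920 in RT, 5896 to 6326 in the 4 SV arrays and 3980 to 4925 in the 4 ST arrays. The 3 regions were fully separated, but the differences were small. On the log2 scale, RT minus ST was 0.72 ± 0.11 (1.64-fold, adjusted p = 0.000339) and SV minus ST 0.47 ± 0.10 (1.38-fold, adjusted p = 0.0308).

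Among the alpha subunits of blood cells, Itgal and Itga2b were higher in RT. Itgal encodes the alpha subunit of LFA-1, carried by leukocytes. Its signal was 164, 151 and 147 in RT, 107, 124, 62.6 and 161 in SV, and 49.8, 47.3, 37.1 and 36.2 in ST. All ST arrays lay below all others, and SV replicate 3 was the SV array nearest to them. RT exceeded ST by 1.87 ± 0.33 on the log2 scale (adjusted p = 0.000947) and SV exceeded ST by 1.35 ± 0.31 (2.55-fold, adjusted p = 0.0383). That SV against ST call was lost when any 1 of 10 of the 11 arrays was left out, all but SV replicate 3, with a log2 fold change of 1.15 to 1.61 over all 11 such fits. The SV and ST means of Itgal, 114 and 42.6, lie under the limit that marks dim genes, so these sizes are uncertain. On the log2(signal + 32) scale, SV minus ST was 0.92 and not called, and RT minus ST was 1.32 and still called. A dim second Itgal probe set gave −0.20 in SV against ST and −0.53 in RT against ST.

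No other leukocyte integrin gene was called higher in RT or SV than in ST. Itgb2, the partner of Itgal, had means of 285 ± 42.9 (n = 3), 266 ± 53.0 (n = 4) and 226 ± 34.2 (n = 4) in RT, SV and ST and RT minus ST was 0.33 on the log2 scale (adjusted p = 0.296). Itgam and Itgax, alpha subunits of myeloid cells, were dim, and Itgax was lower in RT than in ST by −1.23 ± 0.27 (adjusted p = 0.00459). The Itgax arrays read 46.2, 51.2 and 52.9 in RT and 99.1 to 139 in ST, without overlap, and the call was lost on the log2(signal + 32) scale. Of 9 macrophage and myeloid markers, none was called in any comparison, and their summed signal was 20657 to 26942 in RT, 18590 to 27001 in SV and 18098 to 20743 in ST. Of 4 measured T cell markers, none was called and 3 were dim, with summed signals of 216 to 294 in RT, 217 to 352 in SV and 185 to 222 in ST.

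Itga2b encodes the alpha subunit of the platelet fibrinogen receptor. Its signal was 441, 418 and 440 in RT, 307, 195, 199 and 271 in SV, and 115, 127, 182 and 122 in ST. The regions did not overlap, with SV in the middle. As log2 differences, RT minus ST was 1.69 ± 0.22 (3.23-fold, adjusted p = 9.21e-05) and SV minus ST 0.83 ± 0.21 (adjusted p = 0.0561). Of 5 platelet markers, none was higher in RT than in ST and 1 was lower, 3 were dim, and their summed signal was 1971 to 2924 in RT, 2016 to 2565 in SV and 2010 to 2414 in ST.

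The remaining 8 alpha subunits were not called in any comparison. Itga4, a receptor for fibronectin and Vcam1, and Itga9, a receptor for tenascin, were not dim, at −0.20 and 0.18 for RT minus ST on the log2 scale. Itga1, Itga2 and Itga10, which bind collagens, Itga5, the fibronectin receptor subunit, Itgae, the receptor subunit for E-cadherin, and Itgam were all dim. Their RT minus ST differences lay on the log2 scale between −0.48 (Itga1) and 0.32 (Itga5). The Itga5 arrays read between 3.00 and 62.8 and overlapped between all regions, and the standard error in SV against ST was 0.92.

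**Figure D2:**
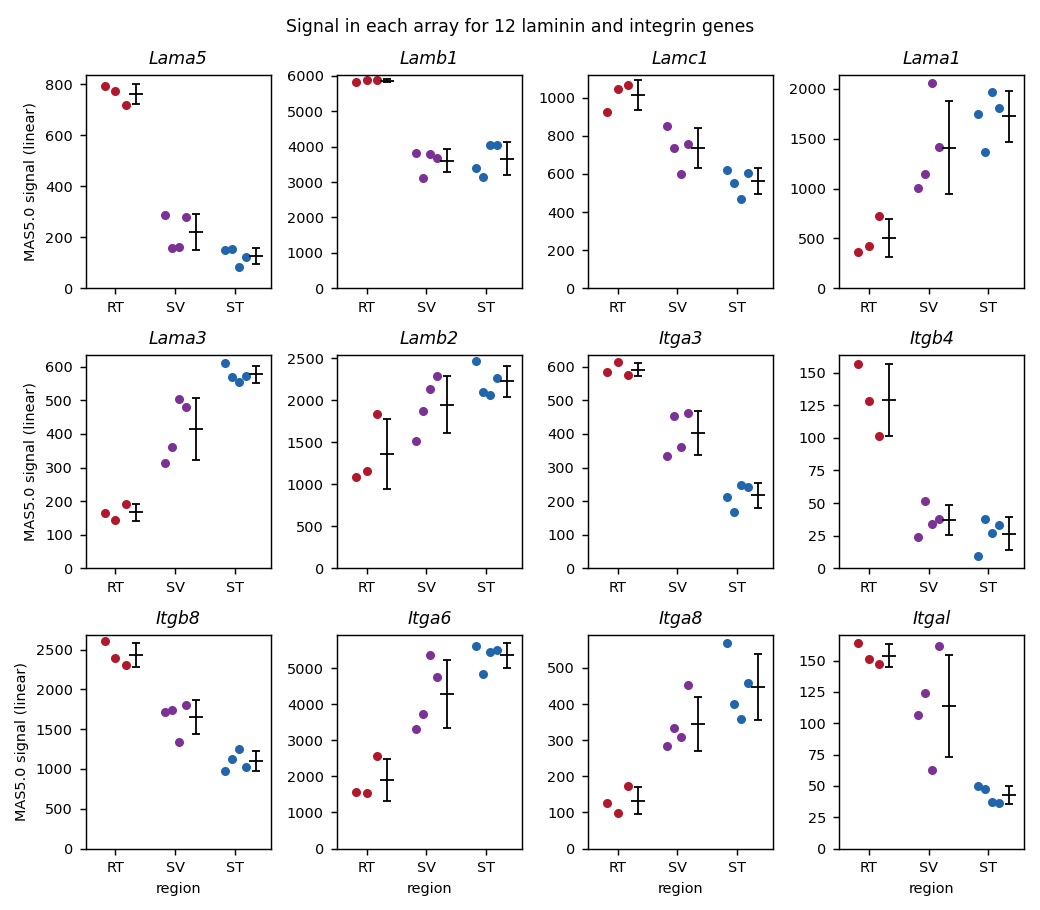
MAS5.0 signal on a linear axis from 0, for 12 laminin and integrin genes in the 3 RT, 4 SV and 4 ST arrays. Each point is 1 array, and the black mark with bars beside it is the mean with the SD over arrays. For Lama5 and Itgb4 the SV arrays sit closer to ST than to RT, while for Itga3 and Itgb8 they sit between ST and RT.

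The beta subunits held 2 genes that were higher in RT than in ST, Itgb4 and Itgb8. Itgb4 pairs with Itga6 and links laminin to keratin filaments through hemidesmosomes. Its signal was 156, 129 and 102 in RT, 24.2, 51.8, 33.8 and 38.2 in SV, and 9.28, 37.5, 27.0 and 33.2 in ST. RT lay well above the rest, and SV and ST overlapped. As log2 differences, RT minus ST was 2.43 ± 0.51 (adjusted p = 0.00303) and SV minus RT −1.83 ± 0.51 (adjusted p = 0.029). The SV and ST means, 37.0 and 26.7, lie under the limit that marks dim genes, so these sizes depend on how low signals are handled: RT minus ST was 1.92 with a floor of 32 and 1.47 on the log2(signal + 32) scale, still called in both. The SV against RT call was lost without RT replicate 1 or 2 or without SV replicate 1, 3 or 4, where the count of genes called lower in SV fell from 2 to 1.

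Itgb8 pairs with Itgav and is known to activate latent TGF-beta. Its signal was 2605, 2395 and 2304 in RT, 1718, 1735, 1335 and 1808 in SV, and 969, 1126, 1256 and 1031 in ST. The regions did not overlap, and SV replicate 3 came closest to ST. On the log2 scale, RT minus ST was 1.16 ± 0.14 (2.23-fold, adjusted p = 4.44e-05) and SV minus ST 0.59 ± 0.13 (under 2-fold, adjusted p = 0.0299). Centring the arrays on their medians brought RT minus ST to 0.73, under 2-fold.

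Itgb1, the common partner of most alpha subunits here, had means of 2212 ± 157 (n = 3) in RT, 2546 ± 713 (n = 4) in SV and 2858 ± 559 (n = 4) in ST. RT minus ST was −0.35 on the log2 scale (95% interval −0.81 to 0.12), an interval that does not hold a 2-fold change. Itgb5, a partner of Itgav that binds vitronectin, was lower in RT than in ST by −0.85 ± 0.17 (1.81-fold, adjusted p = 0.00234). The Itgb5 arrays were at 1782 to 2052 in RT, 2244 to 3977 in SV and 3113 to 3941 in ST.

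Itgb3, the partner of Itga2b and Itgav, was dim and very uneven, at 6.17, 31.2 and 76.6 in RT, 84.9 to 131 in SV and 46.8 to 86.3 in ST. It was called higher in SV than in RT (log2 fold change 2.09 ± 0.65, adjusted p = 0.0467), and that call was lost when any 1 of 10 of the 11 arrays was left out, all but RT replicate 3, with values of 1.10 to 2.92 over all 11 such fits. Itgb6 and Itgb7 were dim and not called, with RT minus ST at 0.54 and 1.09 on the log2 scale. Itgb2 is described with Itgal above.

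**Figure D3:**
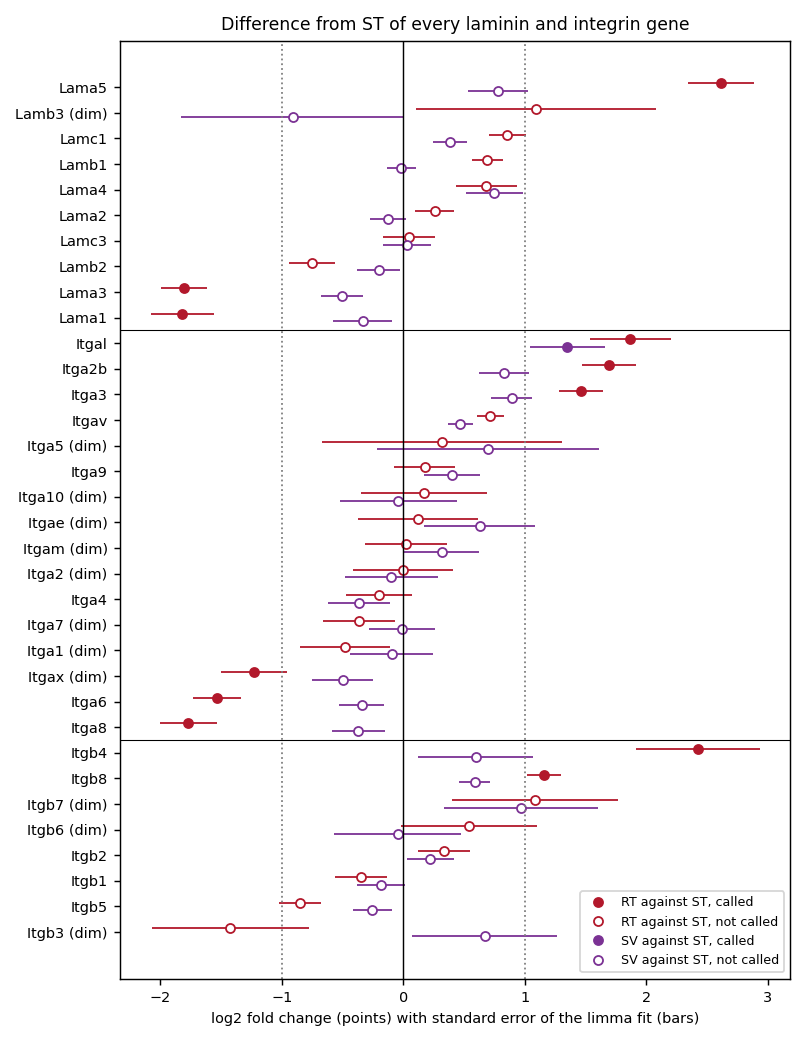
Log2 fold change of each of the 34 genes against ST, with the standard error of the limma fit as bars, for RT (red) and SV (purple). Filled points were called and open points were not, and dotted lines mark 2-fold. The RT points of the called genes lie past the dotted lines, and the SV point of the same gene lies between the RT point and 0.

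For all 11 genes called in RT against ST, the SV mean log2 signal was between the other 2 region means, as it was for 94.3% of all 3607 genes called in that comparison, so this holds for called genes in general. The SV array nearest to the ST mean was replicate 3 for 5 of these 11 genes and replicates 1, 2 and 4 for 2 genes each. Every SV array was above every ST array for 6 of the 34 genes (Lama5, Itga2b, Itga3, Itgal, Itgav and Itgb8), beside 7.19% of all genes, and below for 1, beside 3.64%. In RT against ST, 10 genes were fully above and 7 fully below, beside 24.5% and 18.5% of all genes.

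Markers of the rete testis epithelium separated the regions, and those of Sertoli cells did so in part. The summed signal of 6 measured rete testis markers (Pax8, keratins and Cdh1) was 15153 to 23767 in RT, 2056 to 5646 in SV and 202 to 333 in ST, and 5 of the 6 were called higher in SV than in ST. It was lowest among the SV arrays in SV replicate 3. Sertoli cell markers, 10 in all, summed to 18108 to 20660 in RT, 25498 to 41967 in SV and 42022 to 51093 in ST, and 6 of 10 were lower in RT than in ST, while none was called in SV against ST. Sox9, Wt1, Gata4 and Cldn11 were not called in any comparison, and they make up most of the RT sum, whose cells of origin were not tested. Among the 6 lower markers, the mean signal of Fshr was 206 in RT and 1345 in ST, and that of Rhox5 786 in RT and 7233 in ST. The paper names as a limit that SV pieces very probably held some RT cells, since the tubes run on into each other. An SV value between those of RT and ST is therefore not a reading of the valve alone. How much of each difference, above or below, goes with the mix of cells in a piece was not tested.

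Markers of other cell types that a piece can hold were also called. Of 5 measured efferent duct and epididymis markers, the same 2, Foxj1 and Cftr, were higher in RT (log2 fold changes 6.10 and 5.82) and in SV (2.95 and 2.14) than in ST, and the other 3 were dim. None of the 4 measured Leydig cell markers was called, and 1 of 3 mesothelium markers was higher in both regions. Of 5 germ cell markers, 3 (Ddx4, Dazl and Sall4) were lower and 1 (Gfra1) higher in RT than in ST. Means of Ddx4, Dazl and Sall4 were 55.6, 146 and 14.2 in RT and 643, 2196 and 462 in ST. Gfra1 had means of 2468 in RT and 133 in ST, and was also higher in SV than in ST (log2 fold change 1.97). The summed signals, with Gfra1 large in RT, were 3147 to 3510 in RT, 1772 to 2981 in SV and 2120 to 4853 in ST. The part of germ cell markers in the Itga6 values was not tested. Once region means were removed, arrays of different regions were correlated over all probe sets. Within replicates 1 and 2 or within 3 and 4, r was 0.0692 to 0.190 for the same number and 0.0698 to 0.178 for other numbers. Between these 2 sets it was −0.179 to −0.0761. Once the means are removed, positive values within the sets are balanced by negative ones between them. For unrelated arrays both would be near 0. What sets replicates 1 and 2 apart from 3 and 4 was not tested. Arrays of the same region were not compared in this way. With replicates 3 and 4 alone, which leave 1 RT array, 1 of the 34 genes was called higher in RT than in ST and 3 lower, against 7 and 6 with replicates 1 and 2 alone.

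Of the 17 measured basement membrane partners, the proteins that laminins bind or lie beside, 6 were higher and 1 lower in RT than in ST, and none was called in SV against ST. In RT against ST these are 35.3% and 5.88% of the list, beside 12.5% and 7.34% of all genes. In SV against ST, 2.39% of all genes were higher and 0.0769% lower, so none called in a list of 17 is near that share. Over the list, the median log2 difference was 0.63 for RT minus ST and 0.27 for SV minus ST. Fras1, which holds epithelium to the tissue below it, was higher by 3.49 ± 0.47 (adjusted p = 0.000118), its means being 244 ± 12.1 (RT), 64.3 ± 31.2 (SV) and 22.9 ± 8.27 (ST). The last 2 lie under the limit for dim genes, so the sizes of the Fras1 changes are uncertain. Agrn, the heparan sulfate proteoglycan agrin, which binds laminin directly, was higher by 1.77 ± 0.23, and Col4a5, a collagen IV chain, by 1.39 ± 0.23. Ntn4, a netrin that binds laminin gamma chains, went the other way by −2.60 ± 0.26 (adjusted p = 1.15e-05), its means being 659 ± 257 (RT), 2404 ± 822 (SV) and 3816 ± 455 (ST). Against RT, SV was higher in Ntn4 by 1.88 ± 0.26 and lower in Fras1 by −2.09 ± 0.47 and in Agrn by −1.55 ± 0.23.

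Of the 6 laminin receptors outside the integrins, 1 was called, Bcam. As a gene called higher it is 16.7% of the list, beside 12.5% of all genes in RT against ST and 2.39% in SV against ST. Bcam is the Lutheran glycoprotein, a receptor for laminins that contain the Lama5 chain. Its mean signal was 2406 ± 294 (n = 3) in RT, 689 ± 300 (n = 4) in SV and 100 ± 11.9 (n = 4) in ST. The summed rete testis markers have the same order of regions, and the part of RT cells in the SV value of Bcam was not tested. SV was higher than ST by 2.65 ± 0.31 on the log2 scale (adjusted p = 0.000407), RT by 4.59 ± 0.33 (adjusted p = 1.11e-06), and SV was lower than RT by −1.94 ± 0.33. None of the 4 hemidesmosome partners (Plec, Dst, Col17a1 and Cd151) was called in any comparison, and the median of their RT minus ST differences was −0.0029 (log2). With 12.5% of all genes higher and 7.34% lower in RT against ST, none called of 4 says little about this list.

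Of the 12 measured ligands of other integrins, 4 were higher and 1 lower in RT than in ST, and 1 was higher in SV. In RT against ST these are 33.3% and 8.33% of the list, beside 12.5% and 7.34% of all genes. The 1 in SV against ST is 8.33% of the list, beside 2.39% of all genes. Tnc, the matrix protein tenascin C, exceeded its ST level by 3.28 ± 0.50 in RT (adjusted p = 0.00031), and in SV by 2.19 ± 0.46 (adjusted p = 0.0266). Its means were 188 ± 5.15 (RT), 91.6 ± 25.9 (SV) and 23.1 ± 14.1 (ST). The last 2 lie under the limit for dim genes, so the sizes of these changes are uncertain. The part of RT cells in the SV value of Tnc was not tested. Col1a1 was higher in RT than in ST by 1.66 ± 0.18 and lower in SV than in RT by −1.10 ± 0.18, and Fn1, fibronectin, was lower in SV than in RT by −1.15 ± 0.19. Ibsp, bone sialoprotein, was lower in RT than in ST by −1.75 ± 0.47 (adjusted p = 0.0148).

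Of the 21 measured adaptors that tie integrins to actin, 3 were higher and 1 lower in RT than in ST and none was called in SV against ST. In RT against ST these are 14.3% and 4.76% of the list, near the 12.5% and 7.34% of all genes. None called in SV against ST is near the 2.39% and 0.0769% of all genes there. Parva, which binds integrin-linked kinase, was higher by 1.93 ± 0.26 (adjusted p = 0.000127). Fermt3, the kindlin of blood cells, was higher by 1.48 ± 0.19, and Tns2, a tensin, had a mean of 887 in RT and 310 in ST (adjusted p = 0.000728). Bcar1, a docking protein of focal adhesions, was lower by −1.15 ± 0.18 (adjusted p = 0.0004). The median of the list was 0.02 in RT against ST, beside 0.08 for all genes.

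**Figure D4:**
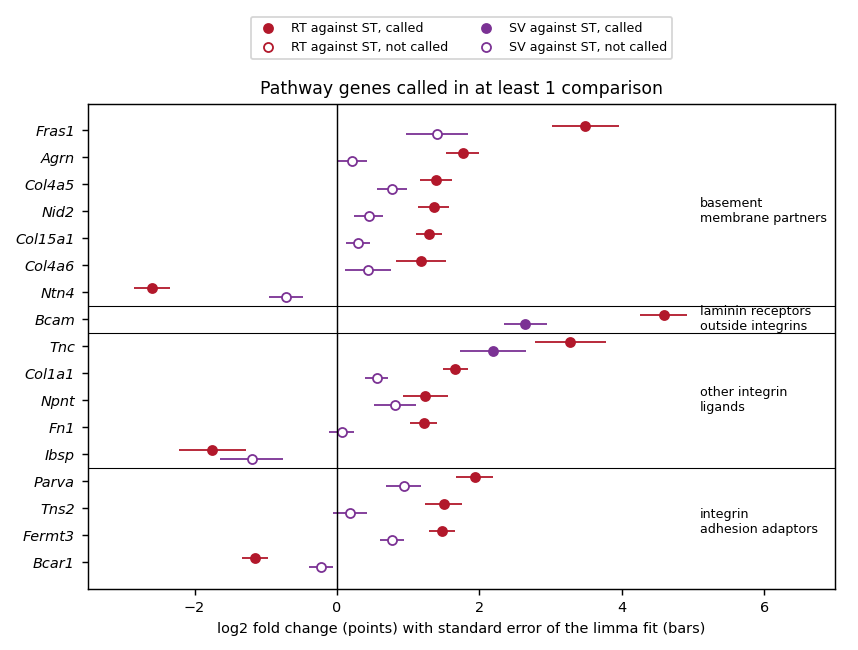
Log2 fold change against ST, with limma standard errors as bars, of every gene of the 5 pathway lists that was called in at least 1 comparison, for RT (red) and SV (purple), filled where called. Bcam and Tnc are the genes called in both RT and SV, and Ntn4, Ibsp and Bcar1 lie left of 0.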

How the data were processed

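RNA of RT, SV and ST pieces was hybridised to Affymetrix Mouse Genome 430 2.0 arrays. The authors used the RNeasy Micro Kit for purification and a GeneChip 3′ IVT Plus kit for labelling, and obtained intensity values by MAS5.0. The deposited intensity values are linear signals of 45101 probe sets in 11 arrays, each scaled to a trimmed mean of 500.0, with a median of 65.8 to 110.4. The number of arrays limits the precision. The labels give 4 replicates for SV and ST, although the deposited design text speaks of 3. Replicates are pools whose relation to each other is not described, so p-values measure the spread between these pools only.

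Log2 signals, with no filter and no added constant, were fitted over all 11 arrays in R 4.3.3 with limma 3.58.1, by lmFit and then eBayes with its trend option, two-sided. P-values were adjusted by Benjamini-Hochberg over 45101 probe sets. Errors are limma standard errors for log2 fold changes and SD over arrays for signals. MAS5.0 signals of different probe sets are not on a common scale, so no gene's level was set against that of another outside the marker sums. Those sums add such signals, and bright probe sets weigh most in them. Gene names come from the array annotation, with 34958 probe sets of 1 symbol, 932 of several and 9211 of none, and all 34 genes matched RefSeq by Entrez ID. Promoter letters are from RefSeq (GRCm38.p6), in windows of 250 bases before to 50 after a start. The code for the calls was also run on simulated data with independent noise in each array. That noise lacks the correlation between arrays described below, so the run does not test the calls under it. Figures used Python 3.11.15 and matplotlib 3.10.9.

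The genes and lists (5 pathway and 11 marker lists, 127 of 136 genes measured) were chosen with earlier results of these data known. Every laminin and integrin gene is accounted for, and from each pathway list up to 4 called genes with the largest change per comparison are named. Genes named or plotted beyond that were chosen after their values were seen. Alternatives covered the test, samples, normalization, low signals, probe set, fold threshold, blocks and each array left out.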

Additional observations from a re-analysis of the deposited data

Results flagged for a closer look

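In 68 groups of 4 arrays, the lowest or highest array was compared with the rest of its group by Dixon's criterion, which flags about 1 group in 20 by chance, and 2 stood out. Itgb1, the common beta subunit, had a signal of 2029.82 in ST replicate 3, where the other ST arrays were at 3007 to 3207. Itgb8 had a signal of 1335.4 in SV replicate 3, where the other SV arrays were at 1718 to 1808. The Itgb8 array was still above every ST array.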

How the results depend on the processing

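No called difference reversed under any alternative tried. Of 19 called differences, all 19 stayed called with the replicate block, with replicates 1 and 2 against 3 and 4 as a block and with 1 probe set per gene. In SV against ST the count of genes called higher was 1 with the replicate block and 1 without it. It was 0 by the methods' t-test with Benjamini-Hochberg adjustment, with only the 2 regions compared, with median centring, quantile normalization, a floor of 32, log2(signal + 32), eBayes without trend and replicates 3 and 4 alone, and 4 with no fold threshold. Leaving out 1 array gave 0 to 1. With replicates 1 and 2 alone it was 1, but the gene was Itga3 in place of Itgal. In RT against ST, 6 higher and 5 lower became 1 and 3 with replicates 3 and 4 alone and 5 and 8 with median centring, and 3 were lower with the probe set of the largest spread. In SV against RT, the 5 higher genes became 1 by the adjusted t-test, 0 with replicates 3 and 4 alone and 3 with the probe set of the largest spread. The 2 lower ones became 1 with replicates 1 and 2 alone, 0 with replicates 3 and 4 alone, 5 with no fold threshold and 1 to 2 with 1 array left out. The cause of these changes was not tested, except that fewer arrays enter the fits of replicates alone. The median RT against ST change over all probe sets was 0.13 as deposited, −0.07 after quantile normalization and −0.29 after median centring, so the calls are relative to that scale. Itgax lost its RT against ST call with log2(signal + 32). Same-numbered arrays of different regions correlated at 0.0692 to 0.190 after region means were removed, and other numbers of the same set at 0.0698 to 0.178, over all probe sets. Over probe sets that are not dim, the ranges were 0.226 to 0.588 and 0.152 to 0.397. Between replicates 1 and 2 and replicates 3 and 4, the range over these probe sets was −0.530 to −0.255. There each of the 11 arrays correlated best with its own number, so the numbers may mark pairs. The main fit does not use them, and its standard errors, p-values and intervals are unpaired. Statements that regions overlap do not use them either. Only the replicate block does. Low signals limit what can be read from the 12 dim genes.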

Other observations

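Of the 34 genes, 20 have several probe sets, and none had probe sets called in opposite directions. Calls differed between probe sets of a gene for 6 genes in RT against ST and 7 in SV against RT. A dim second probe set of Itgb6, the epithelial partner of Itgav, which was not called on the probe set used here, was higher in RT than in ST (log2 fold change 2.59 by limma, adjusted p = 0.0288) and lower in SV than in RT (−2.83, adjusted p = 0.0309). These values were chosen after they were seen.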
